A study of Mus musculus with 7 samples.

Results

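Iron and heme handling was followed through 8 genes, grouped by step: Lcn2 for siderophore capture, Tfrc and Slc11a1 for uptake and transport, Fth1 and Ftl1 for storage, Slc40a1 for export, and Hmox1 and Blvrb for heme breakdown. The genes were listed by name, and each was read from the probe set with the highest mean signal among those that carry 1 gene symbol. Of the 8 genes, 7 were found among the 9999 genes of the table. Ftl1, the ferritin light chain, was represented by 3 probe sets that also name other genes, among them the pseudogene Ftl1-ps2, so no value is given for it.

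The cells were RAW264.7, a macrophage-like line established from a mouse tumour, grown in serum-containing medium and left untreated (time point T0). Wild-type cells gave 3 arrays, and cells titled RAW GfI1-1, which the series description calls Gfi1 knockout, gave 4. Gfi1 is a zinc finger repressor of transcription in blood cells. The titles call every array a biological replicate. How Gfi1 was knocked out and what the ending of the title stands for are not stated in the labels. Nor do they say whether the arrays came from 1 clone or separate cultures. The p-values therefore measure the spread between these arrays, of which the technical part is not known.

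Macrophages take up iron bound to transferrin, and also as heme inside the red cells they engulf. Heme oxygenase opens the heme ring and frees the iron, which is then held in ferritin or leaves through ferroportin, the product of Slc40a1 and the known iron exporter of animal cells. In infection, macrophages also release lipocalin 2, the product of Lcn2, which binds the siderophores that bacteria use to collect iron. Much of this system is controlled after transcription, by iron regulatory proteins that bind messenger RNA of ferritin, ferroportin and the transferrin receptor, so levels of messenger RNA need not follow levels of protein.

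Upstream sequences are shown for Lcn2 and Blvrb, since both rose more than 2-fold and a RefSeq entry (GRCm38.p6) was found for them. Entries were found for 6 of the 8 genes, 9 start sites in all. The 250 bases before the annotated start are printed 5′ to 3′ on the strand of the gene, at chr2:32387740-32387989 (minus strand) for Lcn2 and chr7:27447728-27447977 (plus strand) for Blvrb. Capitals mark matches to any of the 7 motifs searched on both strands.
Lcn2: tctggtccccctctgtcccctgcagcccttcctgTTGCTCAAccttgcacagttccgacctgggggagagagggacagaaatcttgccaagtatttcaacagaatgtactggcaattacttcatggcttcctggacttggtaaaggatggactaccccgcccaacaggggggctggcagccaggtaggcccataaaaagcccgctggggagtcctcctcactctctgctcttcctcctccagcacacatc
Blvrb: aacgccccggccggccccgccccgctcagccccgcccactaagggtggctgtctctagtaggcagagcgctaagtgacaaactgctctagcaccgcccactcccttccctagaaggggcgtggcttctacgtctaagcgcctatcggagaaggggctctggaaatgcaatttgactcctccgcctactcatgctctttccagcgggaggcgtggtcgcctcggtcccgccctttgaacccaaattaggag

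The Lcn2 window held 1 match to the C/EBP-type motif TTGCNNAA, at -216 to -209 from the annotated start, and the Blvrb window held none of the 7 motifs. The C/EBP-type motif was found in 9.56% of 32851 windows of this length over all genes. No window of the 6 genes held the Gfi1 core AATCAC (9.14% of all windows), the NF-kappaB type motif GGANTTTCC (1.07%), the AP-1 motif TGACTCA (4.46%), the antioxidant response element TGACNNNGC (10.2%), which can overlap AP-1 matches, or the palindromic E-box CACGTG (6.02%). The TATA motif TATAAA (12.4%) was found in 1 of the 2 Fth1 windows, and the C/EBP-type motif in the other. A match describes the letters of the window, and a missing match says nothing of sites elsewhere.

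The 3 wild-type arrays differed little from each other, the SD of their log2 differences (all probe sets) being 0.13 to 0.19 for any pair. The knockout arrays formed pairs, replicates 1 and 2 and replicates 3 and 4, at 0.14 to 0.16 within a pair and 0.52 to 0.54 between the pairs, and no label separates them. Gfi1 itself was higher in the knockout arrays (3.97 to 5.02 log2) than in wild type (2.66 to 2.98), at a signal among the lowest 5% of genes in wild type. Since the edited part of the gene is not known here, this value does not check the labels, on which all directions rest. All 8 macrophage markers were measured. Of these 6 were lower in knockout (Cd68, Csf1r, Adgre1, Lyz2, Mpeg1 and Fcgr3) and 0 higher, beside 21.6% and 21.5% of all genes. Itgam (-0.15, limma adjusted p = 0.628) and Cd14 (0.29, limma adjusted p = 0.232) did not pass. The summed linear signal of the 8, in which the brightest genes weigh most, was 28720 to 29110 in wild type and 19350 to 20500 in knockout. The part of this shift in the results on iron genes was not tested, and in a bulk sample fewer cells of a type cannot be told apart from less RNA per cell. Of 9 neutrophil markers, a cell type in which Lcn2 is a granule gene, 0 were among the named genes of the table. Of 9 erythroid markers 2 were present, of which Hba-a2 was lower in knockout (-0.68, SE 0.10, limma adjusted p = 0.00150). Of 6 lymphocyte markers 0 and of 5 fibroblast markers 1 were present.

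Of the 7 genes, 4 passed the limma threshold of an adjusted p of 0.05 and all 4 were higher in knockout, namely Lcn2, Blvrb, Slc40a1 and Tfrc. Over all 9999 genes 43.1% passed, with 21.5% higher and 21.6% lower, so a count of 4 of 7 is near the background. By at least 2-fold 3 were higher (Lcn2, Blvrb and Slc40a1) and 0 lower, against 3.75% and 3.81% of all genes. Slc40a1 was under 2-fold with a pseudocount of 16 (0.77 on the log2 scale) and with its probe sets averaged (0.96), which leaves 2. The median log2 difference of the 7 was 0.31, beside -0.01 for all genes. The members were chosen with earlier results of these data known, so these figures do not test whether iron genes changed more than others. Slc11a1, Fth1 and Hmox1 did not pass. The pairs of knockout arrays lay apart in each of them, and also in Lcn2, Blvrb and Tfrc, which passed.

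**Figure D1:**
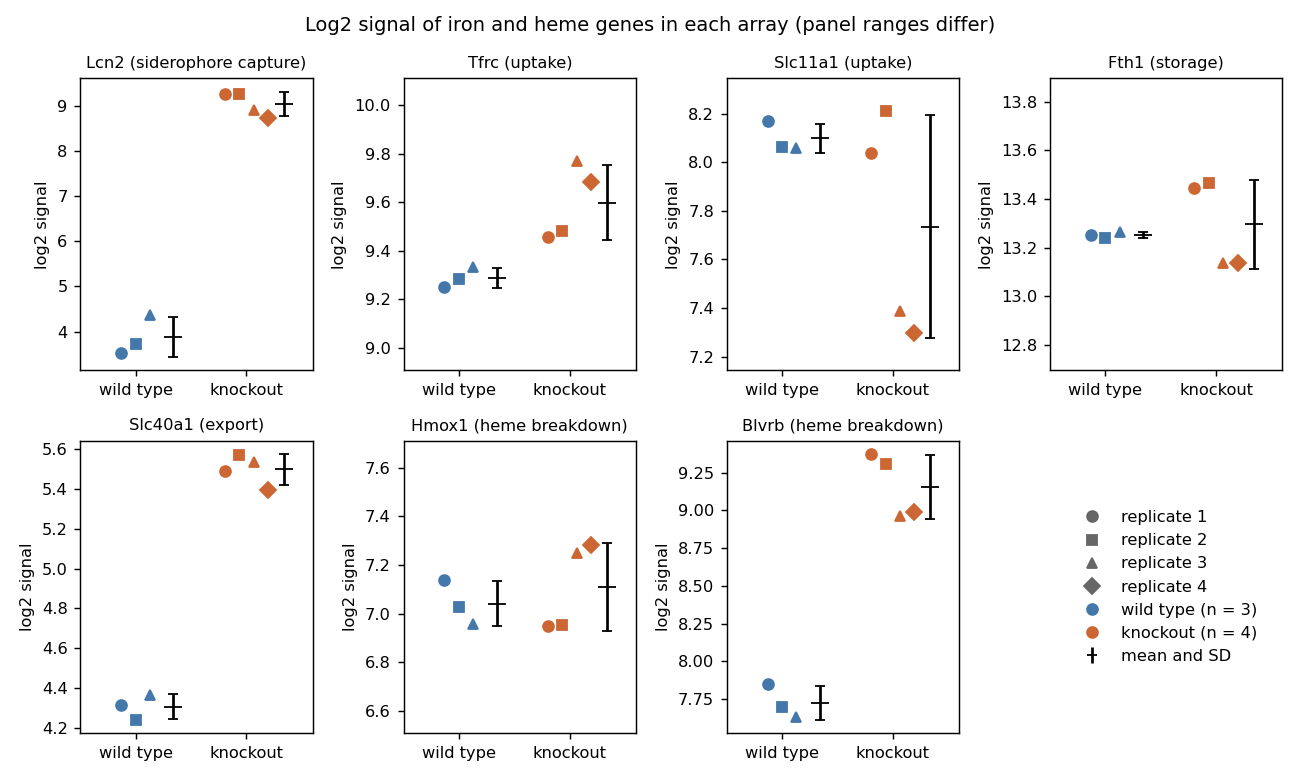
Log2 signal (y axis, range set per panel) of each measured iron and heme gene in the 3 wild-type arrays and 4 knockout arrays (x axis), with 1 symbol per replicate and the group mean and SD beside them. Lcn2, Tfrc, Slc40a1 and Blvrb lie higher in all 4 knockout arrays than in any wild-type array, while for Slc11a1, Fth1 and Hmox1 knockout arrays lie on both sides.

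Lcn2, the siderophore-binding lipocalin, showed the largest difference of the 7. Its log2 signal was 3.53, 3.72 and 4.37 in wild-type replicates 1 to 3, and 9.28, 9.28, 8.93 and 8.74 in knockout replicates 1 to 4. On the linear scale this was 11.6 to 20.8 in wild type and 428.9 to 623.6 in knockout. The groups were far apart, and every knockout array stood well above every wild-type array. The difference of the means was 5.18 (SE 0.23, limma adjusted p = 1.69e-05), a 36.3-fold rise. With a pseudocount of 16 added before the log the difference was 4.15. The wild-type mean of 3.88 ± 0.44 (SD, n = 3) lay little above the limit of 3.51 that marks the lowest 5% of genes, so the fold rests on a signal close to background. Lcn2 was also the gene of the 7 with the widest spread among the wild-type arrays, 0.84 from lowest to highest. The lipocalin receptor gene Slc22a17 rose by 0.31 (SE 0.10, adjusted p = 0.0453), with 6.43 to 6.51 in wild type and 6.54, 6.74, 6.91 and 6.93 in knockout. That call ended when any wild-type array or knockout replicate 2, 3 or 4 was left out (adjusted p from 0.0735 to 0.139).

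The genes whose pattern over the 7 arrays was most like that of Lcn2, among 100 genes with at least 0.5 times its SD, were Odc1 (ornithine decarboxylase, Pearson r = 0.996), Zc3h12c (an RNA-binding zinc finger protein, 0.996) and Fabp5 (a fatty acid binding protein, 0.994). The groups form separate clusters in each of these genes, so such an r mostly repeats the difference between groups. Odc1 was at 9.67 to 9.82 in wild type and 12.29 to 12.70 in knockout, Zc3h12c at 5.17 to 5.32 and 8.07 to 8.51, and Fabp5 at 9.47 to 9.54 and 12.15 to 12.38. In all 3, as in Lcn2, knockout replicates 1 and 2 were above replicates 3 and 4.

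Tfrc encodes the transferrin receptor, the main route for transferrin iron. The arrays gave a log2 signal of 9.25, 9.29 and 9.33 in wild type, and 9.46, 9.48, 9.77 and 9.68 in knockout. The groups did not overlap, and knockout replicates 3 and 4 were the highest arrays. The difference was 0.31 (SE 0.09, limma adjusted p = 0.0326), below that of each of the other 3 genes that passed. The call ended when wild type replicate 1 (adjusted p = 0.0974), 2 (0.0984) or 3 (0.0764), or knockout replicate 3 (0.0523) or 4 (0.0665) was left out, and with the knockout pairs as random blocks (0.299). In that random-block setting the 3 wild-type arrays also form a block, and all genes share a correlation of 0.79 within blocks.

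The size for Tfrc also depended on the probe set. A second probe set had 5.83, 5.81 and 5.90 in wild type and 8.37, 8.30, 7.51 and 7.49 in knockout, which gave a difference of 2.07 (SE 0.25, adjusted p = 0.000931 in a limma fit over all 17335 one-symbol probe sets). The third differed by 0.55 (SE 0.12, adjusted p = 0.0114). All 3 probe sets were higher in knockout, and their mean differed by 0.98 (adjusted p = 0.000451). They differed in which knockout arrays were highest: replicates 3 and 4 in the probe set of highest signal, and replicates 1 and 2 in the others.

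Slc11a1 (Nramp1) encodes a metal transporter of the phagosome membrane, and RAW264.7 cells are known to carry an inactive allele of it. Its log2 signal was 8.17, 8.06 and 8.06 in wild type, and 8.04, 8.21, 7.39 and 7.30 in knockout. Knockout replicates 1 and 2 lay at the wild-type level, and replicates 3 and 4 lay below every other array. The difference was -0.36 (SE 0.23, limma adjusted p = 0.242) with a 95% interval of -0.91 to 0.19. Without knockout replicates 1 and 2 it was -0.75 (adjusted p = 0.000141). The genes most like it over the 7 arrays, among 5665 compared, were Srgap3 (r = 0.998), Yipf7 (0.997) and Sdc3 (0.994), and in each the same pair of knockout arrays was lowest.

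Other genes of uptake moved in both directions. Of 11 further uptake genes on the list 6 were measured, of which 1 rose and 3 fell. Such counts by step, here and for the steps that follow, stand beside 21.5% of all genes higher and 21.6% lower. Slc11a2 (DMT1), which carries ferrous iron out of the endosome, rose by 2.02 (SE 0.20, limma adjusted p = 0.000381), from 6.12, 5.74 and 5.77 to 8.19, 8.21, 7.60 and 7.56. The groups were well apart, and its other probe sets differed by 0.36 and 1.27 in the same direction, both past the threshold. Steap3, the endosomal ferrireductase that works beside it, fell by 0.80 (SE 0.11, adjusted p = 0.00154), a call lost with the knockout pairs as random blocks, where the difference was the same and its SE was 0.33 (adjusted p = 0.175). Lrp1, a large endocytic receptor that takes up heme bound to hemopexin, fell by 1.43 (SE 0.07, adjusted p = 2.69e-05). The arrays gave a log2 signal of 8.03 to 8.15 in wild type and 6.51 to 6.71 in knockout. The zinc and iron importer gene Slc39a14 fell by 0.35 (SE 0.09, adjusted p = 0.0146), while its second probe set stood at 0.00. The call ended without wild type replicate 3 (adjusted p = 0.0503) and when the probe sets were averaged (-0.18, adjusted p = 0.251).

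**Figure D2:**
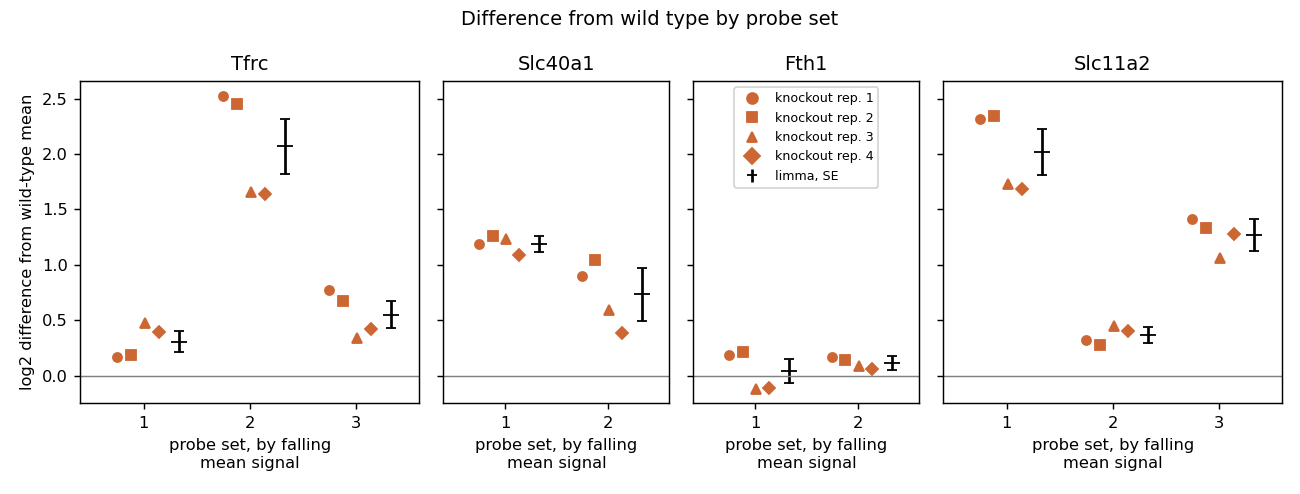
Log2 difference from the wild-type mean (y axis) in each knockout array for every one-symbol probe set (x axis, in order of falling mean signal) of Tfrc, Slc40a1, Fth1 and Slc11a2, with the limma difference and SE beside the symbols. Limma differences run from 0.31 to 2.07 for Tfrc and from 0.36 to 2.02 for Slc11a2, all above 0.

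Fth1, the ferritin heavy chain with ferroxidase activity, did not pass. Its log2 signal was 13.25, 13.24 and 13.27 in wild type, and 13.44, 13.47, 13.14 and 13.14 in knockout. Knockout replicates 1 and 2 lay above all wild-type arrays and replicates 3 and 4 below them. The difference was 0.04 (SE 0.10, limma adjusted p = 0.761), with a 95% interval of -0.20 to 0.29. Its linear signal, 9009 to 11310, is near the array maxima of 12780 to 13510, and whether this limited the difference was not tested. Without knockout replicates 3 and 4 the difference was 0.20 (adjusted p = 0.0102). A second probe set was at 13.01 to 13.05 in wild type and 13.09 to 13.20 in knockout, all 4 knockout arrays on 1 side, with a difference of 0.12 (SE 0.06, adjusted p = 0.170). Near-identical Fth1 pseudogenes can share its probes, so the value is uncertain in that respect.

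Genes that serve ferritin were also listed. Of 4 further storage genes 3 were measured, of which 2 fell and 0 rose. Ncoa4, the receptor that sends ferritin to the lysosome for iron release, fell by 0.47 (SE 0.06, limma adjusted p = 0.000740), with 8.35 to 8.45 in wild type and 7.91 to 7.96 in knockout. Its dimmer probe set stood at -0.03 (SE 0.23, adjusted p = 0.926), and the mean of both did not pass (-0.25). Pcbp1, a chaperone that delivers iron to ferritin, fell by 0.46 (SE 0.07, adjusted p = 0.00230). Pcbp2 stood at -0.11 (SE 0.09, adjusted p = 0.381), while the dimmest of its 3 probe sets differed by 1.15 (adjusted p = 0.000447).

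Slc40a1, which encodes the iron exporter ferroportin, rose by a like amount in every knockout array, 1.09 to 1.26 above the wild-type mean. The arrays gave a log2 signal of 4.31, 4.24 and 4.36 in wild type, and 5.49, 5.57, 5.54 and 5.40 in knockout. The groups did not overlap, and in this probe set, the one of highest signal, the knockout arrays spanned 0.18 without falling into pairs. The difference was 1.19 (SE 0.07, limma adjusted p = 4.06e-05), a 2.28-fold rise at low signal, above 9.20% of genes in wild type and 20.0% in knockout. A second probe set was at 3.87, 3.23 and 3.03 in wild type and 4.27, 4.42, 3.97 and 3.76 in knockout, a difference of 0.73 (SE 0.24, adjusted p = 0.0432) with overlapping groups. There knockout replicates 1 and 2 were above replicates 3 and 4. Of 4 further export genes 1 was measured. Cp, the ferroxidase ceruloplasmin, stood at 0.01 (SE 0.08, adjusted p = 0.957), with each of its 5 probe sets between -0.03 and 0.02.

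Of the pair of heme breakdown genes, Blvrb rose and Hmox1 did not pass. Hmox1 encodes the inducible heme oxygenase, which opens heme to biliverdin. Its log2 signal was 7.14, 7.03 and 6.96 in wild type, and 6.95, 6.95, 7.25 and 7.28 in knockout. Knockout replicates 3 and 4 lay above all wild-type arrays, and replicates 1 and 2 lay just below the lowest of them. The difference was 0.07 (SE 0.11, limma adjusted p = 0.639), with a 95% interval of -0.19 to 0.33. Without knockout replicates 1 and 2 it was 0.23 (adjusted p = 0.0275). Hmox2, the constitutive heme oxygenase gene, fell by 0.19 (SE 0.06, adjusted p = 0.0326), a call that ended when any 1 of the 7 arrays was left out (adjusted p from 0.0550 to 0.0933).

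Blvrb encodes biliverdin reductase B, an enzyme that reduces flavins and biliverdin. The arrays gave a log2 signal of 7.85, 7.70 and 7.63 in wild type, and 9.37, 9.30, 8.96 and 8.99 in knockout. All knockout arrays were above all wild-type arrays, with replicates 1 and 2 highest. The difference was 1.43 (SE 0.12, limma adjusted p = 0.000211), a 2.70-fold rise. Blvra, which reduces the main biliverdin isomer made by heme oxygenase, went the other way, at 10.20 to 10.31 in wild type and 9.68 to 9.75 in knockout. It fell by 0.52 (SE 0.06, adjusted p = 0.000591), a call lost with the knockout pairs as random blocks, where the difference was the same and its SE was 0.16 (adjusted p = 0.0735).

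Knockout pairs on opposite sides of all wild-type arrays were seen in 2 of the 7 genes, Fth1 and Hmox1, and in 8.65% of all genes. Among the 49 further list genes there were 2, Cp and Gclc (4.08%). Fth1 was higher in replicates 1 and 2 and lower in 3 and 4, and Hmox1 the reverse. For Hmox1, replicates 1 and 2 (6.9505 and 6.9547) were barely below the lowest wild-type array (6.9568). In the second Fth1 probe set all 4 knockout arrays lay above wild type. These are descriptions of 2 arrays each, and the difference between the pairs was not tested.

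**Figure D3:**
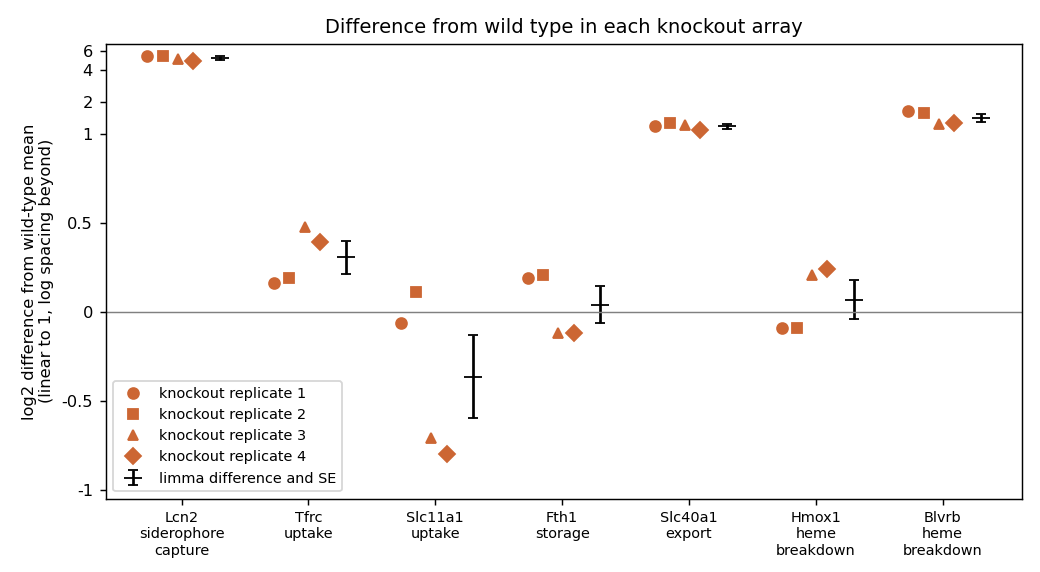
Log2 difference from the wild-type mean (y axis, linear up to 1 and log-spaced beyond) in each of the 4 knockout arrays for the 7 measured genes (x axis), with the limma difference and SE. The 4 arrays of Slc40a1 lie between 1.09 and 1.26, while those of Slc11a1 run from -0.80 to 0.11.

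Among the further genes of heme breakdown, transport and binding, 0 of 7 measured genes rose and 5 fell, counting Hmox2 and Blvra, beside 21.5% and 21.6% of all genes. With the knockout pairs as random blocks 1 of the 5, Hebp1, kept its call. Hebp1, a cytosolic heme-binding protein, fell most of the wider list, at 8.52, 8.49 and 8.43 in wild type and 5.21, 5.38, 6.62 and 6.65 in knockout. The groups were far apart, and replicates 1 and 2 were lowest. The difference was -2.51 (SE 0.39, limma adjusted p = 0.00225). Flvcr1, a heme and choline transporter, fell by 0.52 (SE 0.12, adjusted p = 0.0137), a call that ended without wild type replicate 2 (adjusted p = 0.0582) and with the pairs as random blocks (0.145). Pgrmc1, a membrane heme-binding protein, fell by 0.25 (SE 0.06, adjusted p = 0.0124; 0.0631 without wild type replicate 2 and 0.360 with the pairs as random blocks).

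Of 7 measured genes of heme synthesis 1 rose and 2 fell. Uros, which closes the uroporphyrinogen ring, fell by 0.63 (SE 0.07, limma adjusted p = 0.000722; adjusted p = 0.0757 with the pairs as random blocks). Fech, which inserts iron into the ring, fell by 0.36 (SE 0.07, adjusted p = 0.00544), a call lost with the pairs as random blocks (0.276). Its 2 dimmer probe sets stood at -0.81 (adjusted p = 0.033) and -0.19 (adjusted p = 0.155). Urod stood 0.17 higher (SE 0.05, adjusted p = 0.0407), and that call ended when any 1 of the 7 arrays was left out (adjusted p from 0.0589 to 0.139). Alas1, the first and rate-limiting enzyme, stood at 0.26 (SE 0.09, adjusted p = 0.0530), and passed under 8 of the 18 alternatives, among them quantile normalization (0.27, adjusted p = 0.0264).

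Of 8 measured genes of mitochondrial iron import and iron-sulfur cluster assembly 1 rose and 2 fell. Slc25a37 (mitoferrin 1), which brings iron into mitochondria, rose by 0.58 (SE 0.13, limma adjusted p = 0.0111; 0.138 with the pairs as random blocks). The scaffold gene Iscu fell by 0.42 (SE 0.09, adjusted p = 0.00791) and the co-chaperone gene Hscb fell by 0.48 (SE 0.10, adjusted p = 0.00684). Glrx5 stood at 0.15 (SE 0.07, adjusted p = 0.109). For Isca1 the probe sets disagreed, at -0.31 (adjusted p = 0.0604) and 1.09 (adjusted p = 0.00198).

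Of 11 measured regulators 2 rose and 5 fell. Hfe, whose product binds the transferrin receptor and takes part in iron sensing, fell by 2.03 (SE 0.08, limma adjusted p = 9.41e-06). It was at 7.62, 7.61 and 7.69 in wild type and 5.77, 5.61, 5.56 and 5.50 in knockout, with no overlap and little spread. Nfe2l2 (NRF2), an activator of Hmox1 and the ferritin genes, fell by 0.63 (SE 0.06, adjusted p = 0.000396). Bach1, the heme-sensing repressor of the same targets, fell by 0.49 (SE 0.05, adjusted p = 0.000601), and Keap1, which holds NRF2 back, fell by 0.40 (SE 0.09, adjusted p = 0.0121).

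Mafg, a small Maf partner of both NRF2 and BACH1, rose by 0.78 (SE 0.08, adjusted p = 0.000416 in limma; 0.0506 with the pairs as random blocks). Hif1a rose by 0.86 (SE 0.07, adjusted p = 0.000190). Another of its 3 probe sets stood at 0.17 (adjusted p = 0.478), with knockout replicates 1 and 2 (7.10 and 7.20) below all wild-type arrays (7.26 to 7.29). Its relative Epas1 fell by 0.81 (SE 0.07, adjusted p = 0.000251) to a signal among the lowest 5% of genes, so the size for Epas1 is uncertain. Neither gene of an iron regulatory protein passed. Aco1 stood at -0.31 (SE 0.18, adjusted p = 0.193; a dimmer probe set at -0.40 passed) and Ireb2 at -0.92 (SE 0.37, adjusted p = 0.0845). Ireb2 was at 7.76 to 7.94 in wild type, and at 6.26, 6.33, 7.59 and 7.59 in knockout, so all knockout arrays were lower and replicates 1 and 2 far lower. Ireb2 passed without knockout replicate 3 (-1.13, adjusted p = 0.0394) or 4 (-1.14, adjusted p = 0.0405), without both (-1.57, adjusted p = 7.71e-06), and without replicates 1 and 2 (-0.27, adjusted p = 0.0131). It also passed with the replicate number as a block (-1.14, adjusted p = 0.0369), where knockout replicate 4 adds nothing to the difference. In 5 of the 7 runs without 1 array Ireb2 did not pass (adjusted p up to 0.194), nor did it with the pairs as random blocks (0.214).

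Of 5 measured NRF2 targets outside iron handling 3 rose and 0 fell, beside 21.5% and 21.6% of all genes. The cystine transporter gene Slc7a11 had 5.68, 5.29 and 5.43 in wild type and 9.42, 9.41, 8.19 and 8.10 in knockout, which differ by 3.32 (SE 0.37, limma adjusted p = 0.000605). Gclm, of glutathione synthesis, rose by 0.73 (SE 0.07, adjusted p = 0.000243), a call that was lost when its probe sets were averaged (0.22, adjusted p = 0.488). Txnrd1, thioredoxin reductase, rose by 0.46 (SE 0.06, adjusted p = 0.00123; 0.0890 with the pairs as random blocks). Gclc stood at -0.05 and Srxn1 at 0.28, and neither passed. In Gclc knockout replicates 1 and 2 (7.63 in both) lay below all wild-type arrays (7.85 to 7.90) and replicates 3 and 4 above them.

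In all, 49 of the 70 further genes on the list were measured, of which 9 rose and 19 fell, with a median difference of -0.06. The 49 include the 5 NRF2 targets outside iron handling, of which 3 rose. Of the 49, 57.1% were called, against the 43.1% of all genes given above. The list was chosen with earlier results of these data known, so these shares are not a test of it. With the knockout pairs as random blocks 9 of the 49 passed, 4 higher (Slc11a2, Hif1a, Gclm and Slc7a11) and 5 lower (Lrp1, Hebp1, Nfe2l2, Epas1 and Hfe), and 904 of all genes did. The calls of the other 19 genes ended in that setting. It also takes the wild-type arrays as a block, with a correlation of 0.79 shared by all genes. A lost call therefore does not show a split of the knockout pairs in that gene. In that setting Lcn2, Slc40a1 and Blvrb still passed (adjusted p = 0.00196, 0.00718 and 0.00775). Groups did not overlap for 4 of the 7 genes, all higher in knockout, and for 33 of the 49. Over all genes the share without overlap was 54.5%, made up of 26.5% higher and 27.9% lower in knockout.

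**Figure D4:**
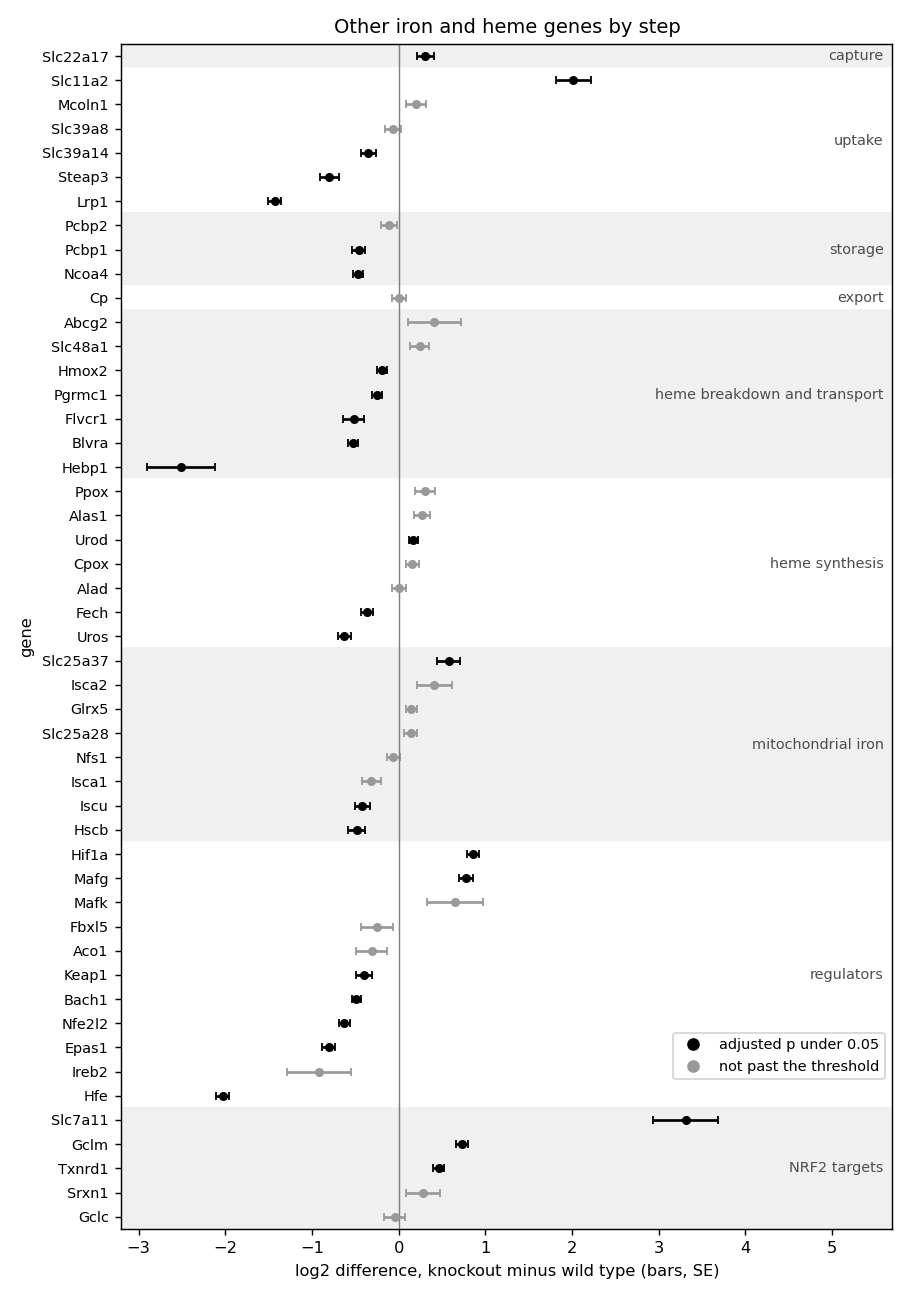
Log2 difference, knockout minus wild type, with its SE (x axis) for the 49 further list genes (y axis), NRF2 targets outside iron handling included, grouped by step. Black symbols passed an adjusted p of 0.05 in limma and grey ones did not; the values run from -2.51 for Hebp1 to 3.32 for Slc7a11.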

How the data were processed

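The authors deposited 1 column of normalized signal intensity per array for 19431 probe sets, made with RMA (no version given), per the submitters' processing notes. The intensities were linear, so log2 was taken. RMA normalizes between arrays, so a change in total RNA cannot be read. Probe sets were named through the platform annotation: 17335 had 1 symbol, 532 several and 1564 none. Each of 9999 genes was read from its one-symbol probe set of highest mean. Groups came from the sample titles. limma 3.58.1 in R 4.3.3 compared 4 knockout with 3 wild-type arrays, two-sided, with Benjamini-Hochberg adjustment over all 9999 genes. The fit, tried on simulated data, had 5 residual and 2.20 prior degrees of freedom. No depth applies to arrays; their number limits the precision.

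Members and lists were chosen with earlier results of these data known. Genes named beside the members are list genes past the threshold with a difference of at least 0.5, the brightest gene of each step, and the 3 genes most like the members of highest and lowest difference. Other list genes named here were chosen after their values were seen. Alternatives covered scaling, centring, a pseudocount of 16, leaving out dim genes, the variance prior, array weights, averaged probe sets, blocks and left-out arrays. Single probe sets were added after the data were seen.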

Additional observations from a re-analysis of the deposited data

Results flagged for a closer look

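Over the 4 knockout arrays, 2 of the 56 genes examined held an array far from the other 3. The limit used flags 1 in 20 by chance when arrays are independent. These arrays form pairs, so the count cannot be set against that rate. For Slc39a14 the gap took 0.874 of the range, over values of 6.51 to 6.56 log2 that differ little. For Slc39a8, a zinc and iron importer with a signal among the lowest 5% of genes, it took 0.88, with knockout replicate 3 at 1.64 and the others at 1.83 to 1.85.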

How the results depend on the processing

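Lcn2, Slc40a1 and Blvrb stayed past the threshold, in the same direction, under each alternative that could be run; Slc40a1 has no value where genes under the 40th percentile of signal were left out. A pseudocount of 16 gave 4.15 for Lcn2 and 0.77 for Slc40a1, and averaged probe sets 0.96 for Slc40a1 and 0.98 for Tfrc. Leaving out 1 array at a time gave 5.01 to 5.43 for Lcn2, 1.16 to 1.23 for Slc40a1, at least 1.36 for Blvrb, 0.25 to 0.36 for Tfrc, -0.52 to -0.22 for Slc11a1, -0.01 to 0.10 for Fth1 and 0.01 to 0.12 for Hmox1. Tfrc lost its call with the replicate block (0.28, adjusted p = 0.0763), with the knockout pairs as random blocks (0.31, adjusted p = 0.299) and in 5 of the 7 runs without 1 array. No wild-type array has replicate number 4, so the replicate block gave the same differences as leaving out knockout replicate 4. Without the first knockout pair Slc11a1 (-0.75) and Hmox1 (0.23) passed, and without the second Fth1 did (0.20). The random blocks lowered the count of further list genes to 9 and of all genes to 904, and leaving out knockout replicates 3 and 4 raised the latter to 6814. Members past the threshold numbered 3 to 6 over all alternatives. Deviations of same-numbered arrays from their group means correlated at 0.12, -0.09 and 0.11. The split of the knockout arrays into pairs enters these values, so they cannot decide whether replicate numbers pair the samples. With the number as a replicate block 3 members, 25 further list genes and 3805 of all genes passed. Where the main fit or the alternative passed, directions were reversed for Pcbp2 (0.28) and Isca1 (0.39) by averaging probe sets, and for Gclc (0.15) without the first knockout pair. Signs also changed where neither fit passed. Among these were Fth1 (-0.12) without the first knockout pair, and Slc11a1 (0.03) and Hmox1 (-0.09) without the second. The causes of these changes were not tested. Signal over background was not used here, so a fold against a low signal, such as that of Lcn2 in wild type, is uncertain.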
